A study of Homo sapiens with 3 samples.

Results

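The contacts described here join a gene promoter to a fragment of the same chromosome that lies 2 to 10 Mb away. A contact was taken from the deposited calls where the midpoints of both fragments were over 2 Mb and at most 10 Mb apart and where the interacting fragment never served as a promoter fragment in any replicate. By that rule 32442 of the 200809 contacts in the union of 3 replicates were members. A further 2282 contacts in the same range joined a pair of promoter fragments and were left out.

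The data are promoter capture Hi-C (PCHi-C) of hESC-CMs, which are cardiomyocytes that were grown from WA09 (H9), a line of human embryonic stem cells, in 3 biological replicates of 1 condition. In PCHi-C, crosslinked chromatin is digested with HindIII, neighbouring ends are ligated, and the products that carry a promoter are pulled down. The cells were unedited, came from 1 cell line and were enriched for cardiomyocytes by lactate medium, and the labels give a check of MYH7 and TNNT2, markers of cardiac muscle, by flow cytometry and qPCR. Expression was not analysed here, so the cell type label was not checked against marker genes.

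Most known enhancers lie in the same topologically associating domain as the promoter they act on. Contacts that reach beyond a domain have been described between regions of like chromatin state, such as stretches bound by Polycomb proteins or silent, gene-poor chromatin at the nuclear periphery. Gene deserts, long stretches with no protein-coding gene, often flank genes that control development or neuronal wiring. A promoter-interacting region (PIR) is the HindIII fragment at the far end of a contact, and the CHiCAGO score of a contact rises with the excess of its read pairs over a background set by distance and noise. The files list scores from 5 upwards, so a contact that a replicate does not list may still have been there at a lower score, and depth per replicate is unknown.

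The PIRs of 4 contacts named in the sections that follow are at most 300 bases long and lie outside annotated UTRs, and their whole GRCh37 plus-strand sequences show what the far end of such a contact is. Capitals mark the remains of the HindIII site at each end. GC content ranged from 32% in the partner of EPHA6 to 45.2% in the partner of OR13C3.
PIR of EPHA6, chr3:93967540-93967764: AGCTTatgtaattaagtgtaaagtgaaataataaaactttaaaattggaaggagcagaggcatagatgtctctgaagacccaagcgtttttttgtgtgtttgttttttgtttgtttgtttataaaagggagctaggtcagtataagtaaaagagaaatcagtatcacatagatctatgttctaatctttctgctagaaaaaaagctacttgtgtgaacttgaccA
PIR of CCNG1, chr5:159851569-159851813: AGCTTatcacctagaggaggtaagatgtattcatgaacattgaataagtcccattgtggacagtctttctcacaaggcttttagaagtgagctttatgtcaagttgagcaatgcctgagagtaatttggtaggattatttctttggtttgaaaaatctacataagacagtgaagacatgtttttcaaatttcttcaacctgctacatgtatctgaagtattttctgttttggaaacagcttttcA
PIR of HAND1, chr5:151153750-151154046: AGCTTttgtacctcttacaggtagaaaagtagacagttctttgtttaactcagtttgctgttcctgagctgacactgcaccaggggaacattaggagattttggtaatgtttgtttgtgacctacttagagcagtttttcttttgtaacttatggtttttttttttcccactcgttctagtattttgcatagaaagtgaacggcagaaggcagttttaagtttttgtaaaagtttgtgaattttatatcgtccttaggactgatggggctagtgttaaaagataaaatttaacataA
PIR of OR13C3, chr9:104481828-104482013: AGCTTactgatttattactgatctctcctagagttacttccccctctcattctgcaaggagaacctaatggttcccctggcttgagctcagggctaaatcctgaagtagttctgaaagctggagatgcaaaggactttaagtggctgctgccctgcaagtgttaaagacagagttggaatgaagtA
The partner of OR13C3 lies in an intron of GRIN3A, that of HAND1 in an intron of G3BP1 and that of CCNG1 across an exon of PTTG1. The partner of EPHA6 overlaps no protein-coding or lncRNA gene.

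Nearer calls recurred more often than calls between 2 and 10 Mb. Replicates 1, 2 and 3 held 14207, 14252 and 15236 of them, a mean of 14565 ± 582 (all values after ± are SDs over the 3 replicates) and 13.1% ± 0.576 of all calls of a replicate. In the union 24490 contacts were called in 1 replicate, 4651 in 2 and 3301 in all 3. The last are 10.2% of the members (95% Wilson interval 9.85% to 10.5%, counting error only), where 24.3% of all 173855 contacts on 1 chromosome with a fragment that is never a promoter fragment were called in all 3. The 3 replicates are the only independent units, since contacts of 1 promoter share its fragment.

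Seen from a replicate, 23.2%, 23.2% and 21.7% of its 2 to 10 Mb calls were made in all 3. The mean was 22.7% ± 0.886, against 53.6% ± 1.71 for contacts of at most 1 Mb, 35.8% ± 1.16 for 1 to 2 Mb and 7.74% ± 0.636 for over 10 Mb. The replicates of each distance class did not overlap with those of another. Contacts between chromosomes stood at 22.2%, 20.4% and 20.9% in replicates 1, 2 and 3, which overlaps with the 2 to 10 Mb values, although each replicate was lower there by 0.745 to 2.73 percentage points. An exact paired permutation test over replicates, two-sided, gave p = 0.25 for each of these 4 differences, which is the smallest p that 3 pairs allow. A looser match raised every class. Where a called fragment of the same promoter within 5 kb counted as the same contact, 32.6% of the 2 to 10 Mb contacts were found in all 3, and within 50 kb 57.4%. The same 50 kb tolerance gave 80.9% at up to 1 Mb, from 33.7% with identical fragments, and 6.65% at over 10 Mb, from 2.75%.

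Recurrence followed the score. The median score was 6.91, 6.89 and 6.87 in replicates 1, 2 and 3, and the highest was 137. Of calls that scored 5 to 7, 8.49% ± 0.883 were made in all 3 replicates, of those at 7 to 10 20.2% ± 0.903 and of those at 10 to 20 53.6% ± 1.58. At 20 or more the share was 93.5% ± 1.80. At the same score of 10 to 20, contacts of at most 1 Mb recurred in 95.8% ± 0.193, so that the lower recurrence at 2 to 10 Mb was also seen between calls of like score. Among contacts shared by a pair of replicates, scores had a Spearman rho of 0.50 to 0.52 across 4707 to 4980 contacts, a description since contacts are not independent.

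**Figure D1:**
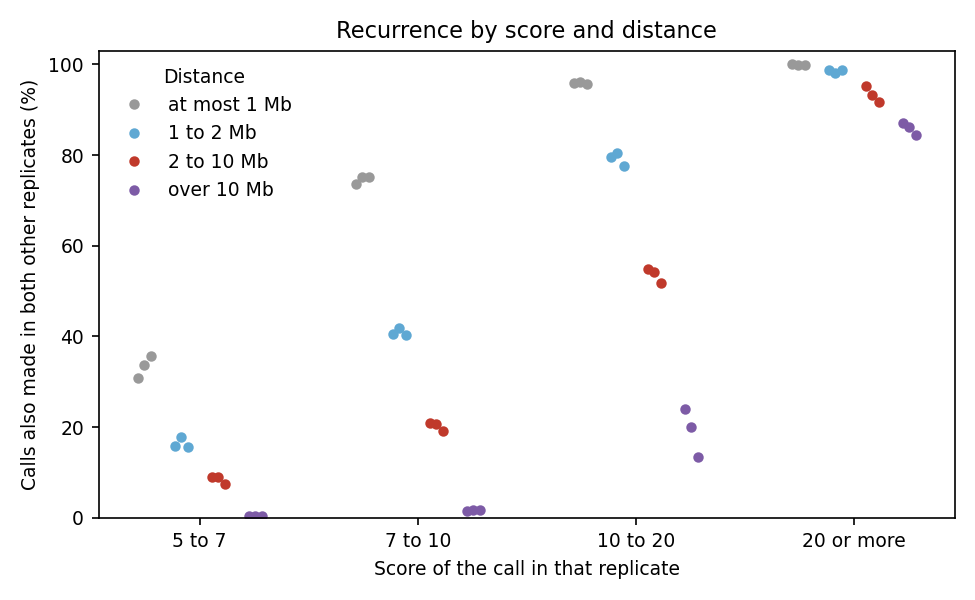
Share of a replicate's calls that were also made in both other replicates (%, vertical axis), by the score of the call (horizontal axis) and by distance (colour). Each point is 1 replicate, in the order 1 to 3 from left to right. At scores of 10 to 20 the red points, 2 to 10 Mb, lie between 51.8% and 54.9%, and the grey points, at most 1 Mb, between 95.6% and 96.0%.

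Most of these contacts sat near the lower limit of the range. The median distance was 2.96 Mb in the union, 3.06 Mb for contacts called in 1 replicate, 2.80 Mb for those in 2 and 2.77 Mb for those in all 3. A possible pair is a promoter fragment with a call and a HindIII fragment that is never a promoter fragment, at the stated distance. Per 1000000 possible pairs there were 796, 780 and 829 calls at 2 to 3 Mb in replicates 1, 2 and 3. The rate fell to 352 ± 14.7 at 3 to 4 Mb, 150.3 ± 7.64 at 4 to 5 Mb and 36.1 ± 3.78 at 6 to 7 Mb, then stayed between 15.2 and 17.2 from 7 to 10 Mb. Contacts called in all 3 fell faster, from 218 per 1000000 at 2 to 3 Mb to 1.85 at 6 to 7 Mb. Beyond 7 Mb only 3 of 1377 contacts were called in all 3.

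The limits of the range split no visible step. Between 1.9 and 2.0 Mb there were 2172 contacts with 12.5% in all 3, and between 2.0 and 2.1 Mb 2157 with 11.96%. Just inside 10 Mb there were 47 contacts and just outside 47, none of them in all 3 replicates.

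**Figure D2:**
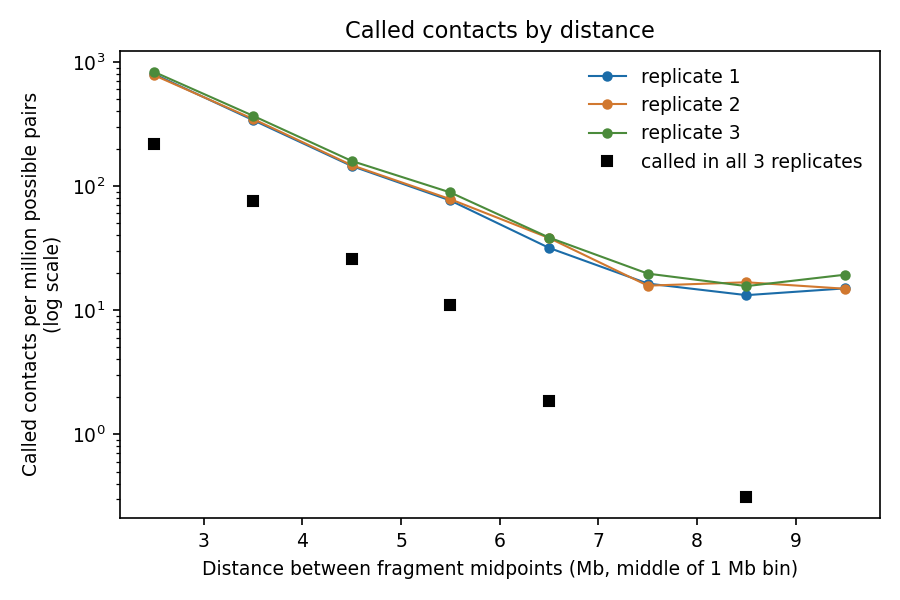
Called contacts per 1000000 possible pairs (vertical axis, log scale) in 1 Mb bins of distance (horizontal axis, Mb). Coloured lines are the replicates and black squares the contacts called in all 3; no square is drawn at 7 to 8 Mb or 9 to 10 Mb, where that count was 0. The replicates fall together from between 780 and 829 per 1000000 at 2 to 3 Mb.

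PIRs at 2 to 10 Mb lay in gene deserts more often than those at up to 1 Mb or over 10 Mb. A desert was taken as a stretch of at least 500 kb with no protein-coding gene, and GENCODE annotation on GRCh37 held 694 of them over 953 Mb. In replicates 1, 2 and 3, 39.8%, 39.0% and 39.0% of the 2 to 10 Mb calls had the midpoint of their PIR in a desert. For calls of at most 1 Mb the share was 9.21% ± 0.0307, lower by 29.7 to 30.6 percentage points in each replicate (exact paired permutation test, two-sided p = 0.25, the smallest possible). For 1 to 2 Mb it was 39.9% ± 0.168, and the difference from the 2 to 10 Mb class did not have the same sign in all replicates (exact two-sided p = 0.5). Of the possible pairs at 2 to 10 Mb, weighted to the observed distances, 27.1% ended in a desert. Possible pairs were not counted at other distances, so the shares of the other classes have no such background. A PIR within 1 Mb of a promoter also has less room to lie in a desert, so the gap to that class is a description. The share of calls in deserts was highest between 2 and 4 Mb, 41.8% ± 0.495 and 41.9% ± 0.713, and at 5 to 6 Mb it was 22.5% ± 2.55, below the 28.8% of possible pairs there. It did not rise steadily with the number of replicates calling, at 38.0%, 42.3% and 39.7% for 1, 2 and 3 replicates. Where lncRNA genes also bounded a desert, the share was 12.5% ± 0.341 beside 9.10% of all HindIII fragments.

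The stretch between both ends was also poor in genes. At 2 to 3 Mb a median of 2 protein-coding gene starts lay between the ends of a contact called in all 3 replicates, and 16 between those of a possible pair. No gene start lay between in 12.5%, 12.1% and 12.2% of the calls of replicates 1, 2 and 3, in 16.9% of the contacts called in all 3 and in 0.775% of possible pairs. Possible pairs were taken from all 19075 promoter fragments with a call, whereas 2 to 10 Mb contacts in all 3 came from 421. The possible pairs were not matched to these promoters. Of the 1310 contacts called in all 3 whose PIR lay in a desert, 372 (28.4%) had no gene start between PIR and promoter, and 100 (7.63%) had the promoter inside the same desert.

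**Figure D3:**
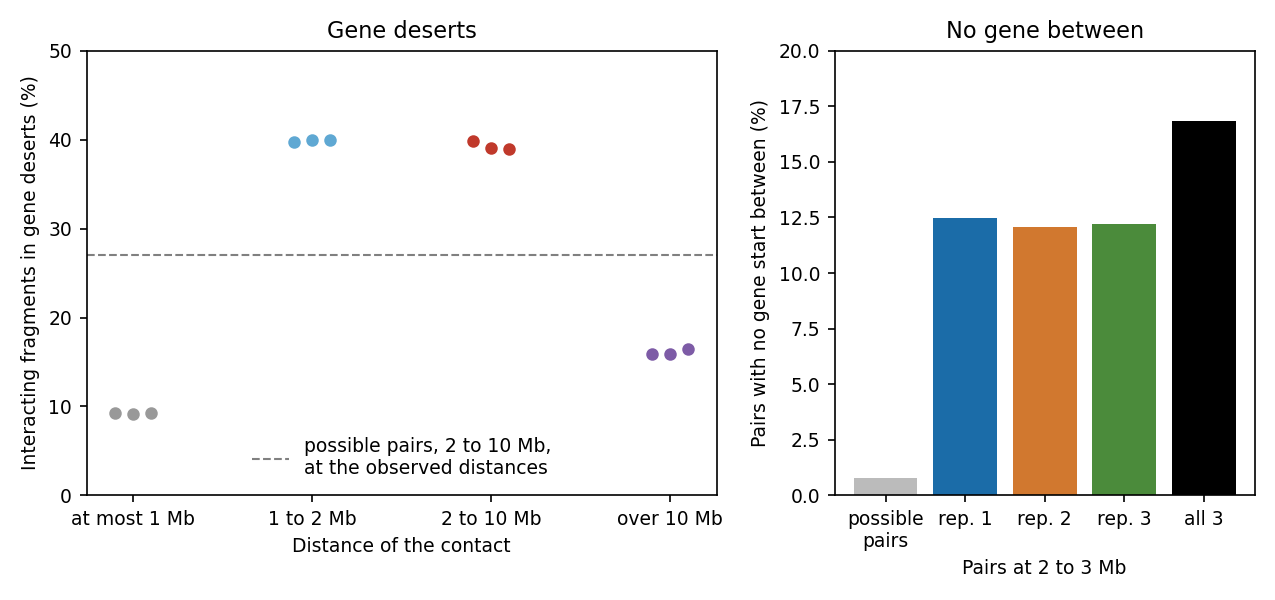
Left, PIRs whose midpoint lies in a gene desert (%, vertical axis) by distance of the contact (horizontal axis); each point is 1 replicate and the dashed line is the 27.1% of possible pairs at 2 to 10 Mb. Right, pairs at 2 to 3 Mb with no protein-coding gene start between both ends (%), for possible pairs, the calls of each replicate and contacts called in all 3. The bars rise from 0.775% for possible pairs to 16.9%.

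Contacts of the deserts were concentrated. Of 694 deserts 443 held a PIR of a 2 to 10 Mb contact and 118 a contact called in all 3 replicates, and 5 deserts held 359 of those 1310 contacts (27.4%). Of these 5, the desert between GRIN3A, an NMDA receptor subunit, and CYLC2 at chr9:104500930-105757592 held 89, among them 22 from OR13D1, 20 from OR13C3 and 15 from OR13C5, which encode olfactory receptors.

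The longest of the 5, 3.32 Mb between ZEB2, a repressor of epithelial genes, and ACVR2A, an activin receptor, at chr2:145278625-148602085, held 60. All of these 60 came from lncRNA promoters or from fragments with no annotated start. The desert between NSUN3, a mitochondrial tRNA methyltransferase, and EPHA6 at chr3:93850677-96533424 held 58, of which 55 came from EPHA6 itself, whose promoter stands at the edge of that desert. The desert between COX7C, a subunit of respiratory complex IV, and AC008394.1 at chr5:85916780-86512422, held 57, and 35 of them came from the fragment chr5:83017307-83034754, which carries no annotated start and lies just outside HAPLN1.

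PIRs at 2 to 10 Mb stood in less GC-rich surroundings than those at up to 1 Mb and close to those at 1 to 2 Mb. The median GC content of the 100 kb centred on the PIR was 38.3% in each of the 3 replicates (SD 0.034) against 42.0% ± 0.012 for contacts of at most 1 Mb, a difference of -3.74 to -3.68 percentage points in each replicate (exact two-sided p = 0.25, the smallest possible). At 1 to 2 Mb it was 38.8% ± 0.0276, higher than at 2 to 10 Mb by about 0.5 percentage points in each replicate, and the median of all HindIII fragments was 39.2%. The mean was 39.3% ± 0.0214 for 2 to 10 Mb calls and 40.5% for possible pairs. Across the contacts called in all 3, the GC content around both ends had a Pearson r of 0.64, a description over contacts that share promoters, where at most 1 Mb it was 0.71. CNAGGGGGC, a short core of the CTCF motif, was searched on both strands in the central 1 kb. The PIR held a match in 1.30% of contacts called in all 3, beside 1.44% of all 837157 HindIII fragments. Over whole fragments, both ends held matches on 1 strand only in 22 of the contacts called in all 3, with the matches facing each other in 7, facing away in 6 and the same way in 9. Counted once per contact called in all 3 replicates, 39.7% of PIRs were desert, 25.5% other intergenic sequence, 22.1% protein-coding intron and 12.7% overlapped a protein-coding exon. Of all fragments that were never promoter fragments, each counted once, these places held 31.2%, 23.4%, 31.3% and 14.1%. The 3301 contacts have 2298 distinct PIRs, so a PIR shared by several promoters counts more than once in the shares by contact.

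The rate differed widely between chromosomes. Over all 23 it was 187 ± 7.46 calls per 1000000 possible pairs, and chromosome 9 had 571, 605 and 601 in replicates 1, 2 and 3, or 3.17 ± 0.123 times the rate of all chromosomes. A single pair of regions, described below, held 72.7%, 74.1% and 74.3% of these calls and 637 of the 644 contacts of chromosome 9 in all 3. Without that pair chromosome 9 had 156 ± 1.31 calls per 1000000 possible pairs, 0.906 ± 0.0439 times the rate of all chromosomes without it. The number of possible pairs was left unchanged, and other chromosomes kept their largest region pairs. The pair was removed for its high count, so a drop is fixed by the choice. Chromosomes 14, 13, 5 and 21 followed with 369 ± 18.8, 326 ± 11.8, 303 ± 22.3 and 290 ± 12.3. Chromosomes 14 and 13 stood apart from each other in every replicate, whereas 5 and 21 overlapped. At the low end stood chromosome 1 with 82.5 ± 4.81, chromosome 19 with 74.8 ± 8.22, chromosome 17 with 36.3 ± 4.29 and chromosome 22 with 8.47 ± 1.69.

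Contacts called in all 3 were more uneven. Chromosome 9 held 644 of 3301 (19.5%), from 21 promoter fragments, chromosome 10 held 375 and chromosome 5 held 351. Chromosome 19, the densest in genes, held 2 and chromosome 22 none of its 23. Across the 23 chromosomes the rate and the number of protein-coding genes per Mb had a Spearman rho of -0.64 and a Pearson r of -0.44, given as a description because all chromosomes share the same libraries.

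**Figure D4:**
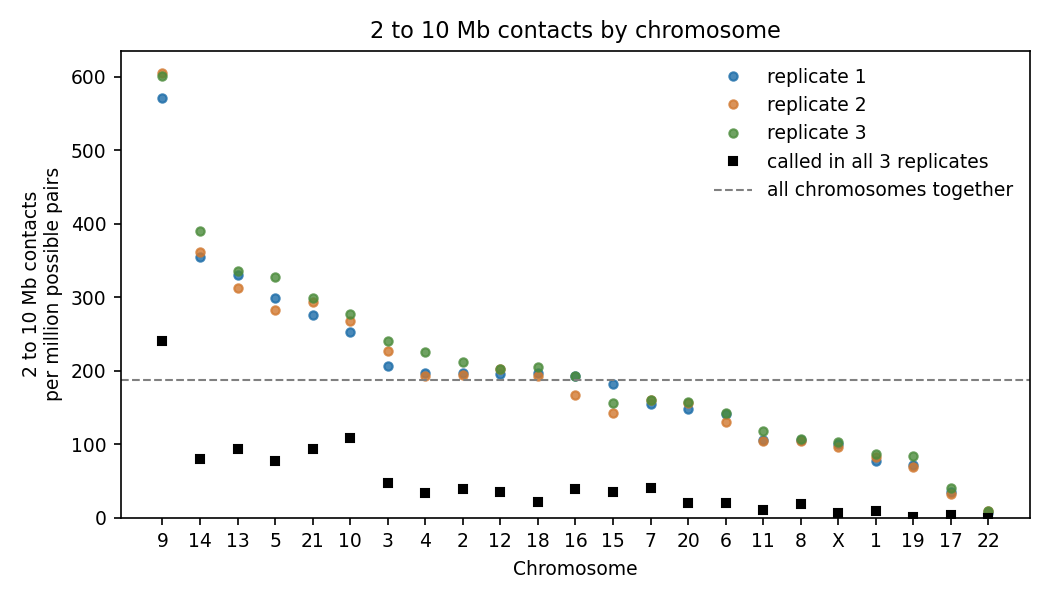
Calls of 2 to 10 Mb per 1000000 possible pairs (vertical axis) on each chromosome (horizontal axis, ordered by the mean of the replicates). Coloured points are the replicates, black squares the contacts called in all 3, and the dashed line the rate over all chromosomes together, 187. Chromosome 9 lies between 571 and 605.

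Few promoters accounted for most recurrent contacts. Of 19075 promoter fragments with any call, 4529 (23.7%) had a contact at 2 to 10 Mb, with a median of 2, and 421 (2.21%) had one in all 3 replicates. The 97 fragments with at least 10 such contacts held 72.6% of them and the top 10 held 785 (23.8%). Of the 421, 140 (33.3%) also had a contact of at most 1 Mb in all 3, where 34.1% of all promoter fragments had one.

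MSMB, which encodes a protein secreted by the prostate, had the most, 131 contacts in all 3 out of 299, with 191, 213 and 212 calls in replicates 1, 2 and 3. They spread over chr10:45491661-47703540, at 3.85 to 6.06 Mb, in 13 blocks of fragments no more than 20 kb apart, and all 131 span gaps of unknown sequence in GRCh37. Of all contacts called in all 3, 14.3% span such a gap, so distances and order on chromosome 10 depend on how the build places its pieces, and the part of the assembly in these calls was not tested. Without every contact across a gap, 10.0% of the remaining members were called in all 3.

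Behind it stood 5 promoters of chromosome 9. PPP3R2, a testis form of the calcineurin regulatory subunit, had 99 contacts in all 3 and 144, 151 and 139 calls. NIPSNAP3A had 96, with 137, 135 and 138 calls, and GRIN3A had 94, with 158, 159 and 146. OR13D1 and OR13C3 had 92 and 62. The calls of PPP3R2, GRIN3A and OR13D1 overlapped between genes, so their order by calls does not exceed the spread between replicates.

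EPHA6, a receptor for ephrins in axon guidance, had 57 contacts in all 3 with 97, 94 and 94 calls, and 96.5% of the 57 lay in a desert. AL445204.1 on chromosome 13 had 55, with 122 calls in every replicate. OR13C5 had 51, and the fragment chr5:83017307-83034754 had 48, all in a desert. Counted as blocks, MSMB stayed first and 5 of these 10 fragments remained among the first 10.

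**Figure D5:**
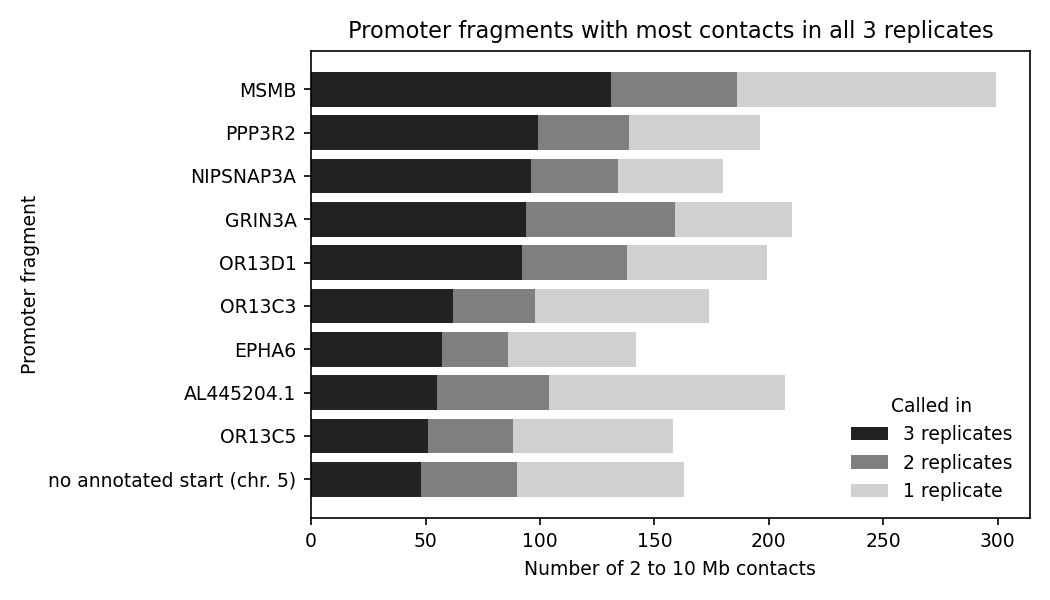
Number of 2 to 10 Mb contacts (horizontal axis) of the 10 promoter fragments with the most contacts in all 3 replicates (vertical axis, by gene). Shades give the number of replicates that called a contact. MSMB has 131 in all 3 out of 299.

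Neighbouring contacts formed pairs of regions, and most recurrent contacts lay in pairs seen from both sides. Contacts called in all 3 were joined where both their ends lay within 200 kb, a distance chosen after the values were seen. The 3301 contacts formed 304 region pairs, of which 104 held 1 contact and 74 held 10 or more, 81.6% of all. In 60 pairs promoters of each region reached fragments of the other, and these pairs held 2238 contacts (67.8%). Joined within 100 kb the share was 62.4% and within 500 kb 74.3%.

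The largest pair joined chr9:104074685-104763412 to chr9:106682139-107557050 with 637 contacts and 1112, 1201 and 1196 calls in replicates 1, 2 and 3. From the left 8 promoter fragments made 244 of the contacts, among them those of PPP3R2, GRIN3A, PGAP4, and RNF20, a histone H2B ubiquitin ligase. From the right 10 fragments made 393, among them NIPSNAP3A and olfactory receptors of the OR13 family. Without chromosome 9, which holds this pair, 9.005% of the members were called in all 3.

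On chromosome 5, 136 contacts joined chr5:159739738-160112688, with PTTG1, SLU7, a splicing factor, and ATP10B, to chr5:162679504-162933788, with CCNG1, HMMR, a hyaluronan receptor of the mitotic spindle, and MAT2B, a regulatory subunit of methionine adenosyltransferase. Of these 100 were made from the left and 36 from the right. The next pair, chr10:46967018-47152641 with chr10:49196749-49757958, held 133 contacts across a median of 350000 unknown bases. Promoters on the left, among them NPY4R, a receptor for pancreatic polypeptide, made 92 of these. Promoters on the right, among them MAPK8, the kinase JNK1, made 41. Each contact reached a fragment of the other region that is never a promoter fragment. A pair of chromosome 5 regions near HAPLN1, which links hyaluronan to proteoglycans, and near COX7C held 114. A pair of chromosome 10 regions, with ZNF22 and MARCHF8 on the left and MSMB on the right, held 84. The pair of chromosome 2 regions with 58 contacts was called from the left only.

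Contacts were ranked by the lowest of their 3 scores, so that a high score in every replicate is fixed by the choice and the values are a description. By mean score a contact of MSMB with chr10:47542805-47543231 came first, with 137, 99.1 and 30.8, the widest spread among the first 5. The contact with the highest lowest score was that of CNTN5, a contactin of neuronal adhesion, to a fragment at chr11:96198064-96204947 in an intron of JRKL, 2.69 Mb away, with scores of 60.1, 78.4 and 80.2. It spans 150000 unknown bases and no gene start. NIPSNAP3A followed with 57.3, 58.9 and 64.5 for a fragment over an exon of GRIN3A, 3.15 Mb away. The contact of NPIPB15, a member of a duplicated gene family on chromosome 16, to PDPR, a regulator of pyruvate dehydrogenase phosphatase, scored 59.6, 71.8 and 54.6 at 4.22 Mb. CHRM3-AS1, antisense to a muscarinic receptor, reached a fragment over an exon of the lncRNA ENSG00000237250, with 55.9, 50.8 and 49.4. The nearest protein-coding genes of that fragment are ZP4, which encodes a protein of the egg coat, at 10.8 kb and RYR2, the calcium release channel of the cardiac sarcoplasmic reticulum, at 30.9 kb. From CNTN5 to MSMB, the next in order, neighbours overlap in score.

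MSMB scored 61.8, 72.8 and 46.4 with a fragment 3.95 Mb away. The contacts of CCNG1, PCDH10 and the fragment of MRPL46 and MRPS11, in this order, did not overlap in score, and neither did those of EFNB2 and EPHA6. CCNG1 scored 45.0, 49.1 and 50.4 with the 245-base fragment in PTTG1 printed above, 3.01 Mb away. PCDH10, a protocadherin, scored 41.2, 44.4 and 44.4 at 3.72 Mb across 1 gene. The fragment shared by MRPL46 and MRPS11, both of the mitochondrial ribosome, scored 37.9, 38.4 and 40.3. EFNB2, ephrin-B2, scored 53.9, 36.6 and 55.0, and EPHA6 35.1, 35.4 and 33.9 with the 225-base fragment printed above, with no gene between. In the calls on the merged replicates these contacts scored between 30.3 and 49.6, below the lowest replicate score for every one of the 10 except MSMB, whose merged score of 49.6 lay between its replicates.

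Sequence shared by both ends was rare by the measure used. Alignment of each PIR to its promoter fragment found at least 95% identity over at least 500 bases in 1 of 32442 contacts and in 0 of the 3301 called in all 3. In 4713 contacts (14.5%), 491 of them in all 3, a fragment is shorter than 500 bases and could not reach that length, among them the named partners of EPHA6, CCNG1 and OR13C3. Segments that are duplicated elsewhere than in the 2 fragments were not searched.

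PIRs were mostly private to a promoter. Of 22252 PIRs, 74.7% had 1 promoter fragment and 2.35% had 5 or more. The PIR with the most promoters was chr1:145115011-145116060 in SEC22B, a SNARE of the secretory pathway with several annotated pseudogene copies, with 28 promoter fragments from ACP6 to ADAR. Of these contacts 18 were called in 1 replicate, 7 in 2 and 3 in all 3, and all span assembly gaps. The PIR chr11:51366027-51366870 had 16 promoters, mostly olfactory receptor genes from OR4A15 to OR5AP2, across a gap as well, with 2 in all 3. On chromosome 9 a fragment at chr9:107503317-107504130 had 11 promoters with 6 in all 3, and the 186-base fragment in GRIN3A printed above had 11 with 8 in all 3. Of those 11, 8 are genes of the OR13 family.

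Gene groups differed in how many members had such contacts. Of 15515 protein-coding genes with a call, 3596 had a 2 to 10 Mb contact (23.2%) and 328 had one in all 3 replicates (2.11%). Genes of cadherins, contactins and axon guidance stood highest, with 49 of 132 (37.1%) and 26 (19.7%) in all 3, together 355 contacts. Their leading members were EPHA6, PCDH9, a protocadherin with 38 contacts in all 3 and scores of 30.3, 41.2 and 34.5 for its best at 4.91 Mb, and EFNB2 with 29. At scores of at least 7 in every replicate 20 of the 132 (15.2%) remained, beside 1.34% of all genes. The lists were chosen with earlier results of these data known, so the rank of this group is a description only.

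Contacts in all 3 replicates were rare among genes of the heart, as they were among all genes. Of 36 cardiac transcription factors with a call, 8 had a contact (22.2%) and 2 had one in all 3 (5.56%), beside 23.2% and 2.11% of all genes. HAND1, a factor of the left ventricle, made 18 contacts, and the 1 in all 3, to the 297-base fragment in G3BP1 printed above, scored 5.55, 7.49 and 16.1 at 2.70 Mb. NR2F1, known from atrial cells, reached ARRDC3-AS1 with 5.37, 8.90 and 9.74 at 2.13 Mb. GATA4 had 1 contact in 1 replicate. Of 29 genes of the sarcomere and Z-disc 6 had a contact (20.7%, beside 23.2% of all genes) and none had one in all 3. MYOZ2, a calcineurin-binding Z-disc protein, had 23 with 8, 9 and 7 calls in replicates 1, 2 and 3, and TTN, titin, had 1. Of 37 cardiac ion channels and calcium handling genes 4 had a contact (10.8%) and none in all 3, with GJA5, a connexin of atrium and conduction system, at 8 contacts. With 2.11% of all genes in all 3, lists of 29 or 37 genes can hold none, so this is not read as a trait of these genes.

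Of 200 patterning transcription factors 31 had a contact (15.5%) and 5 in all 3 (2.50%), beside 23.2% and 2.11% of all genes. FOXP2, a forkhead factor of brain and lung, had 11 contacts in all 3 with a best of 17.6, 19.0 and 15.3 in an intron of TFEC. TFAP2A, a factor of the neural crest, had 5 with a best of 10.07, 9.37 and 14.3.

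The other gene lists stand beside 23.2% of all genes with a contact and 2.11% with one in all 3. Of 72 nuclear genes of oxidative phosphorylation 15 had a contact (20.8%) and 3 had one in all 3 (4.17%): COX7C with 11, NDUFA4 with 10 and COX7B2 with 3. Of 72 cytosolic ribosomal protein genes 16 had a contact (22.2%) and RPL22 alone had one in all 3 (1.39%). Cell cycle genes had a contact in 13 of 37 (35.1%) and in all 3 in none, which a list of 37 can show at 2.11%. Zinc finger genes had a contact in 71 of 335 (21.2%) and in all 3 in 2 (0.597%), ZNF22 and ZNF189. Olfactory receptor genes had a contact in 85 of 238 (35.7%) and in all 3 in 11 (4.62%), which held 303 contacts, 92, 62 and 51 of them from OR13D1, OR13C3 and OR13C5. All of these 11 genes except OR4C15, OR4A15 and OR5D14, with 2, 2 and 1 contacts, are neighbouring OR13 genes on chromosome 9. The lists were not tested against each other, and neighbouring genes of a list share regions.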

How the data were processed

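The starting point was the deposited PCHi-C calls, 1 set for each of the 3 hESC-CM replicates and 1 for all of them merged. Each deposited line holds a promoter fragment, an interacting fragment and a CHiCAGO score, and the authors listed scores from 5 upwards. They mapped reads with HiCUP to GRCh37 and called interactions with CHiCAGO. Versions of these tools are not given in the sources used here. No read count was used.

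Fragments were checked against a HindIII digest of GRCh37, and 144397 of 144398 matched. Genes were taken from GENCODE release 44 lifted to GRCh37. A contact counted as the same in several replicates where both fragments had identical coordinates. Shares carry 95% Wilson intervals, which cover counting error only, and exact paired permutation tests were run over the 3 replicates, which are the only replicates of 1 group. Near-identical ends were searched with minimap2 2.31-r1302 (k-mer 15). Soft-masked sequence was not used here, because the reference carries no masking. Other software was Python 3.11.15, pandas 2.3.3, SciPy 1.17.1, networkx 3.6.1, pysam 0.24.0 and samtools 1.23.1. The functions were checked on simulated data whose answers were known.

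Members, gene lists and tests were chosen with earlier results of these data known. Named were the 10 promoter fragments with most contacts in all 3 replicates, the 10 contacts with the highest lowest score (1 per promoter), the 5 deserts and the 5 interacting fragments with most contacts or promoters, up to 3 members per list and the farthest contact in all 3. Other genes were named after their values were seen, as were region pairs and the settings without chromosome 9 or its largest region pair, without the top 10 promoters and without gaps. Some items that this rule names are not reported here.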

Additional observations from a re-analysis of the deposited data

Results flagged for a closer look

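Calls on the merged replicates were outside the comparisons of the report, apart from the scores of the strongest contacts. They held 7558 contacts of 2 to 10 Mb, and 53 of these (0.701%) were called in no single replicate. Their median score was 5.32 and the highest 6.57, against a median of 7.67 for all merged calls of that range. The merged set held 4.93% of the contacts called in 1 replicate, 65.0% of those called in 2 and 99.2% of those called in all 3. There were no control samples to set the 53 against. Why they appear in the merged calls alone was not tested.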

How the results depend on the processing

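Of 58 recomputed values, 28 stayed within the spread between replicates, the counting interval or 1.5 times the count. At scores of at least 7 the union held 14788 contacts, 13.2% in all 3, with 7051 calls per replicate, a median distance of 2.93 Mb and chromosome 9 at 4.14 times the rate of all chromosomes. At scores of at least 10 it held 5915, 18.3% in all 3, 3060.3 calls, 2.94 Mb and 38.2% of PIRs in deserts. Without 1 replicate, 19.8% to 20.3% of contacts were called in both others, the median distance was 2.93 to 2.95 Mb, the union held 23752 to 24576 contacts and chromosome 9 stood at 3.10 to 3.22. PIRs of any kind gave a median of 2.98 Mb. Matching within 5 kb and 50 kb raised the share in all 3 to 32.6% and 57.4%. The merged calls held 7558 contacts. The desert share was 31.3% for deserts of at least 1 Mb and 12.5% with lncRNA bounds, beside 21.1% and 9.10% of all HindIII fragments. Contacts in all 3 put chromosome 9 at 5.68 times the rate, and MSMB's 131 contacts form 13 blocks.

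Chosen after seeing the data, leaving out chromosome 9 gave 9.005% in all 3 and 40.8% in deserts, and leaving out the top 10 promoter fragments gave 8.25%. Without its largest region pair chromosome 9 stood at 0.906 times the rate of all chromosomes, where a drop is fixed by the choice of that pair. GC around PIRs called in all 3 was 38.2%. Contacts in region pairs seen from both sides were 62.4% with joins of 100 kb and 74.3% with 500 kb. The cause of each shift was not tested, apart from higher scores and fewer replicates leaving fewer calls. No paired analysis between groups was possible because the 3 replicates form 1 group, and the paired tests set distance classes of the same replicate side by side. Depth of each replicate is not given in the sources used here, and contacts scoring under 5 are not listed.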
